A study of Mus musculus with 10 samples.

Results

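The 10 genes described here are Ern1, Eif2ak3, Atf6, Xbp1, Atf4, Ddit3, Trib3, Asns, Herpud1 and Sdf2l1, genes of the unfolded protein response (UPR) and the integrated stress response (ISR). They were found by gene name in the gene table of lungs at postnatal day 30 (P30). The table held 54532 genes, and the names matched 11 of its entries, because Ddit3 was listed under 2 identifiers. The second Ddit3 entry (ENSMUSG00000116429, 105 bases long) was at 0 in every lung and was not tested, which left 10 genes, all of them autosomal, among the 20448 genes tested. The lungs came from wild-type C57BL/6J mice in 2 groups of 5, all operated on at P7 and collected at P30. In the IPF group (increased pulmonary flow) an aortocaval fistula was made by puncturing the abdominal aorta into the adjoining vena cava, which sends more blood through the lungs. The sham group had the same operation without the puncture. RNA of lung tissue was sequenced, so a value averages over every cell type of the lung, and a change in the number of cells of a type cannot be told apart from a change of RNA per cell.

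The UPR is the answer of a cell to unfolded protein in the endoplasmic reticulum (ER), and is known in the lung above all from secretory cells such as the surfactant-producing alveolar type 2 cells and plasma cells. Its sensors sit in the ER membrane: IRE1α (encoded by Ern1) splices Xbp1 mRNA into the form that encodes an active transcription factor, PERK (Eif2ak3) phosphorylates the initiation factor eIF2α, and ATF6 is cut in the Golgi to release a transcription factor. Phosphorylated eIF2α, which other kinases also produce in the ISR, lowers translation in general while raising that of ATF4, a transcription factor of amino acid and stress genes. Sensor activity is set at the protein level, and a gene value does not separate spliced from unspliced Xbp1 mRNA.

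UPR and ISR factors bind short promoter elements, so the promoters of 3 targets are printed here: Herpud1, which holds elements of both responses and was the member that fell in the IPF group, Asns, which holds the ISR element without the ER one, and Sdf2l1, another ER target, which holds neither. Each line gives the 250 bases before the RefSeq start site (GRCm38.p6), 5′ to 3′ on the strand of the gene. The positions are chr8:94386179-94386428 (plus strand) for Herpud1, chr6:7693210-7693459 (minus strand) for Asns and chr16:17132384-17132633 (minus strand) for Sdf2l1. Capitals mark in Herpud1 the C/EBP-ATF response element (CARE), read on the opposite strand, and further on the ER stress element II (ERSE-II), in Asns the CARE, and in Sdf2l1 the 3 copies, on the opposite strand, of CCACG, the second part of the ER stress element (ERSE).
Herpud1: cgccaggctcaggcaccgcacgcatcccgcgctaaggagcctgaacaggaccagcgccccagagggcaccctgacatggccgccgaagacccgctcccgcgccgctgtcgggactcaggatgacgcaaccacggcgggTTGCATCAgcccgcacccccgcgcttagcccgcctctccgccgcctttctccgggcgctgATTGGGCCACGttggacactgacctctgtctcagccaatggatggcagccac
Asns: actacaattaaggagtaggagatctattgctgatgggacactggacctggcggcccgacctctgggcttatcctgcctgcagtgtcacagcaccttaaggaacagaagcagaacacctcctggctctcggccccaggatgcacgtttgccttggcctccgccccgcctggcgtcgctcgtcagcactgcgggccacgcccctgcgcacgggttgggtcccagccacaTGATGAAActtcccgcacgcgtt
Sdf2l1: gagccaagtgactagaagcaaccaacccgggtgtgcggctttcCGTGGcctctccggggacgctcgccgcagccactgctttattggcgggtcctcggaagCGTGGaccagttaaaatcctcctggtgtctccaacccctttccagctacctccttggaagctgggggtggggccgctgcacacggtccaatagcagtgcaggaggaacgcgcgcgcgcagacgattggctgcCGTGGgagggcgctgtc

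The RefSeq table held promoters of 9 of the 10 genes (Atf6 had no entry) among 32851 promoters, each reaching from 250 bases before to 50 bases after a start site, and both strands of all of them were searched. ERSE-II (ATTGG and CCACG, 1 base apart) was found in 12 promoters (0.0365%), and Herpud1 was the member among them, from base -52 to base -42. CARE (TGATGNAA) was found in 3.97% of all promoters and in those of 3 members, Asns (-23 to -16), Herpud1 (-112 to -105) and Trib3 (14 to 21 bases after the start site). The full ERSE (CCAAT and CCACG, 9 bases apart) and the UPR element (UPRE, TGACGTGG) were found in 0.119% and 0.676% of all promoters and in no member. The ERSE-II contains CCACG and, on the opposite strand, CCAAT, and these letters are common: CCACG alone was in 32.8% and CCAAT in 37.4% of all promoters, and each was in 5 members. A match describes the letters in this window and not the binding of a factor.

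Levels are given as FPKM (fragments per kilobase of gene, scaled to library size), and differences as log2 fold changes, IPF minus sham, on log2(FPKM + 0.1), which slightly understates the change of low genes. Every FPKM checked matched a whole number of reads (within 0.01), a check that left out zeros and the highest values. The recovered reads came to 16250190 to 19026843 per lung in the IPF group and 15483046 to 17818542 in the sham group. A gene was called when limma's p, adjusted by Benjamini-Hochberg over the 20448 genes, was under 0.05, a level that 5.85% of them reached (759 higher and 437 lower). Beside it an exact two-sided permutation test over the 10 lungs is given, for which 5 against 5 allows no p below 0.00794. Several features of the libraries moved with the groups. Of the 5 sex-linked genes Xist was higher and 4 Y-linked genes were lower in the IPF group in every lung, so the sex of the mice and the operation cannot be told apart, although the methods describe pups of both sexes allotted to both arms. Of the circadian clock genes 13 of 14 were called, 3 higher and 10 lower. The hour of collection is not given in the sources used here and cannot be told apart from the operation either. Summed over the clock list, the IPF lungs were at 93.8 to 171 FPKM, highest in replicate 5, and the sham lungs at 303 to 360. The 8 neutrophil markers summed to 55.6 to 304 FPKM in the IPF group, again highest in replicate 5, and to 16.1 to 86.7 in the sham group. The part of these features in the values below was not tested.

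Of the 10 members, 1 was called lower in the IPF group (Herpud1) and 1 higher (Ddit3), where 2.14% and 3.71% of all genes tested were called in these directions. Neither passed the limit of 1 on the absolute log2 fold change, which 1.14% of genes passed together with the adjusted p. At an unadjusted p under 0.05 there were 5 members (19.5% of all genes): Herpud1, Ddit3, Xbp1, Sdf2l1 and Atf6. The fold changes were positive in 5 members and negative in 5 (50.4% of all genes were positive), with a median of 0.03 against 0.00 over all genes. By role, the 3 sensors had negative values, both transcription factors had positive ones, and the 5 targets ran from -0.61 to 0.57.

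**Figure D1:**
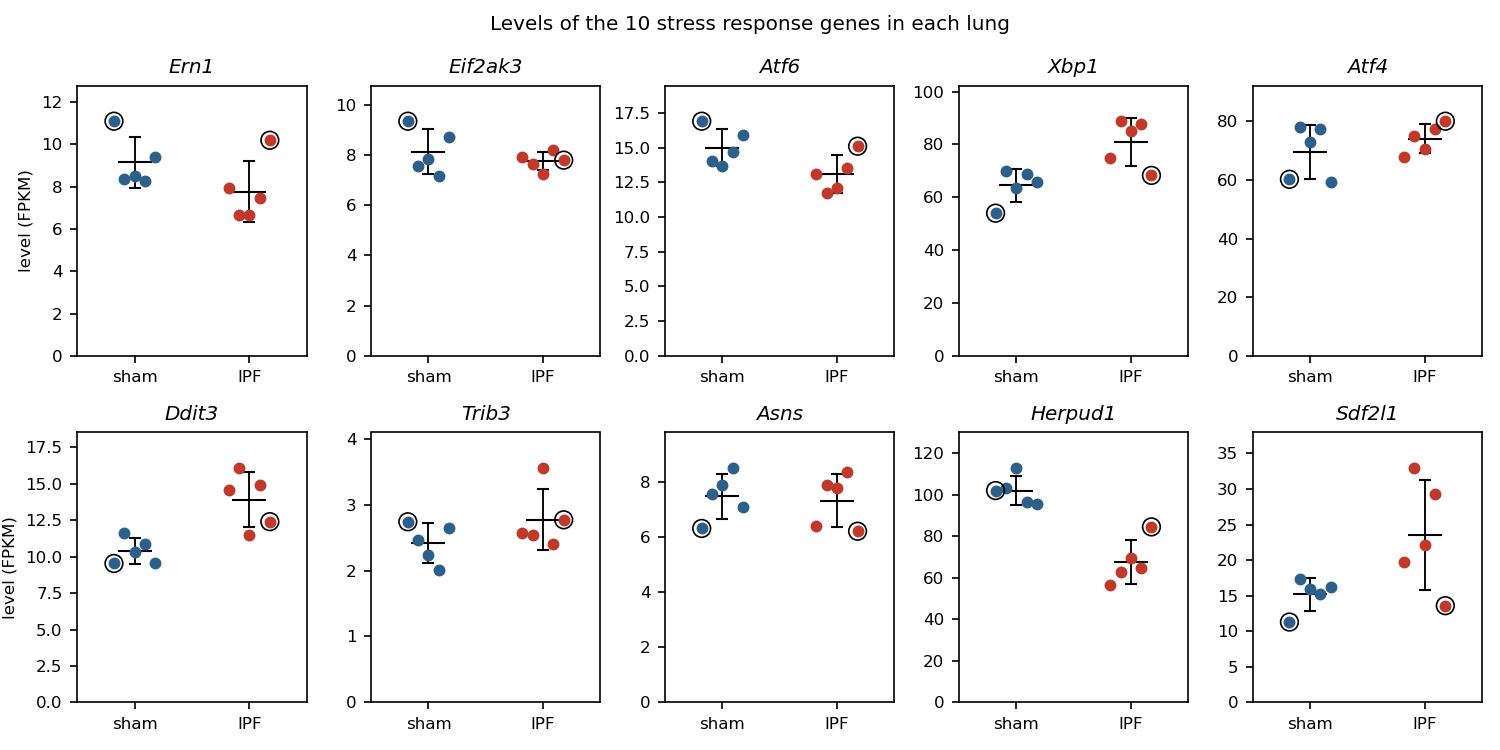
Level (FPKM, linear axis from 0) of each of the 10 genes in the 5 sham (blue) and 5 IPF (red) lungs. Each point is 1 lung, the bar and whiskers are the mean and SD, and rings mark IPF replicate 5 and sham replicate 1; the groups of Herpud1 do not overlap, from 56.3 to 84.5 against 95.7 to 113 FPKM, while those of the other 9 genes do.

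The targets are described first, since the called genes were among them. Herpud1 (ENSMUSG00000031770, chromosome 8, 94386438 to 94395377 in GRCm38) encodes a ubiquitin-like protein of the ER membrane that takes part in ER-associated degradation (ERAD), the removal of misfolded proteins. Its level in IPF replicates 1 to 5 was 56.3, 62.6, 69.5, 64.7 and 84.5 FPKM, and in sham replicates 1 to 5 it was 102, 103, 113, 96.7 and 95.7 FPKM. Every IPF lung was below every sham lung, which held for 2.77% of all genes tested; groups that did not overlap in either direction made up 7.29%, and those with IPF higher, none of them a member, 4.52%. The means were 67.5 ± 10.6 and 102 ± 6.94 FPKM (SD, n = 5 in each group), and the log2 fold change was -0.61 (SE 0.10, 95% interval -0.82 to -0.39), a ratio of 0.657. Herpud1 fell with a limma adjusted p of 0.00579 and an exact permutation p of 0.00794. Between 2235 and 4297 reads lay behind each value, and the adjusted p stayed under 0.05 in all 20 alternative analyses. An antisense gene, Gm15890, shares 535 bases with Herpud1 at a mean of 0.376 FPKM, and whether strand was used in counting is not given in the sources used here.

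Ddit3 (ENSMUSG00000025408, chromosome 10, 127290774 to 127296288) encodes CHOP, a transcription factor that acts late in ER stress and promotes cell death. It stood at 14.6, 16.1, 11.5, 14.9 and 12.4 FPKM in IPF replicates 1 to 5 and at 9.53, 11.6, 10.3, 10.9 and 9.57 FPKM in the sham replicates. IPF replicate 3 lay just under the highest sham lung (replicate 2), and the other 4 IPF lungs were above all sham lungs. The means were 13.9 ± 1.89 and 10.4 ± 0.89 FPKM (SD, n = 5 each), and the log2 fold change was 0.41 (SE 0.10, 95% interval 0.19 to 0.62; limma adjusted p = 0.0323, exact permutation p = 0.0159). This call was close to the limit: it was lost in 7 of the 10 fits that left out 1 lung (adjusted p up to 0.0846, without IPF replicate 4) and under 3 other alternatives. Ddit3 rests on 250 to 464 reads a lung and shares 68 bases with Mars, a gene on the opposite strand with a mean of 14.1 FPKM.

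Sdf2l1 (ENSMUSG00000022769, chromosome 16, 17130138 to 17132383) encodes a soluble ER protein that works with the chaperone BiP. Its IPF values were 19.8, 33, 22.1, 29.3 and 13.6 FPKM and its sham values 11.3, 17.3, 16, 15.3 and 16.2 FPKM, in replicate order. Replicates 1 to 4 of the IPF group were above every sham lung, and IPF replicate 5 was below all sham lungs but replicate 1. The log2 fold change of 0.57 (SE 0.21, 95% interval 0.10 to 1.04) was the most positive of the 10 members but did not pass the test (limma adjusted p = 0.158, exact permutation p = 0.0556). The spread within the IPF group, a coefficient of variation of 32.8%, was also the widest among the members. Without IPF replicate 5 the log2 fold change was 0.75, with a limma adjusted p of 0.0208, and in the other 9 fits that left out 1 lung it was 0.44 to 0.62 and did not pass (adjusted p 0.185 to 0.307).

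Trib3 and Asns are ATF4 targets and neither passed the test. Trib3 (ENSMUSG00000032715, chromosome 2, 152337422 to 152344032), a pseudokinase that CHOP and ATF4 induce, was the member with the fewest reads, 71 to 143 a lung. It was at 2.57, 2.54, 3.56, 2.40 and 2.77 FPKM in the IPF lungs and at 2.74, 2.47, 2.23, 2.01 and 2.65 FPKM in the sham lungs, with a log2 fold change of 0.18 (95% interval -0.09 to 0.46, limma adjusted p = 0.465). The IPF lungs 3 and 5 were above all sham lungs, replicate 5 only narrowly. Asns (ENSMUSG00000029752, chromosome 6, 7675169 to 7693254), the enzyme that makes asparagine, was at 6.38, 7.87, 7.75, 8.35 and 6.2 FPKM against 6.30, 7.56, 7.86, 8.50 and 7.07 FPKM. The ranges of both groups nearly coincided, and the log2 fold change was -0.03 (95% interval -0.26 to 0.20, limma adjusted p = 0.912).

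The transcription factors were among the most abundant members. Xbp1 (ENSMUSG00000020484, chromosome 11, 5520659 to 5525893) stood at 74.9, 88.8, 85.2, 87.7 and 68.3 FPKM in the IPF lungs and at 54.0, 70.0, 63.6, 69.0 and 65.8 FPKM in the sham lungs. As with Sdf2l1, replicates 1 to 4 of the IPF group exceeded every sham lung and IPF replicate 5 did not. The log2 fold change was 0.33 (SE 0.09, 95% interval 0.12 to 0.53), with a limma adjusted p of 0.0679 and an exact permutation p of 0.0238, and without IPF replicate 5 it was 0.39 with an adjusted p of 0.0220. The other 9 fits that left out 1 lung gave 0.27 to 0.36 and did not pass (limma adjusted p 0.0807 to 0.156). Atf4 (ENSMUSG00000042406, chromosome 15, 80255184 to 80257541) was at 67.7, 75.1, 70.5, 77.4 and 80.0 FPKM against 60.2, 77.9, 73.0, 77.3 and 59.3 FPKM. Sham replicates 1 and 5 were below all IPF lungs and the other 3 sham lungs lay among them, and the log2 fold change was 0.10 (95% interval -0.10 to 0.30, limma adjusted p = 0.604).

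None of the sensors passed limma's adjusted test, with all lungs or under any of the 20 alternatives (1, Atf6, had an unadjusted p under 0.05). Ern1 (ENSMUSG00000020715, chromosome 11, 106394650 to 106487852) was at 7.93, 6.66, 6.67, 7.45 and 10.2 FPKM in the IPF lungs and at 11.1, 8.36, 8.50, 8.29 and 9.43 FPKM in the sham lungs (log2 fold change -0.24, 95% interval -0.51 to 0.03, limma adjusted p = 0.318). Atf6 (ENSMUSG00000026663, chromosome 1, 170704674 to 170867771) was at 13.1, 11.7, 12.1, 13.5 and 15.1 FPKM against 16.9, 14.0, 13.7, 14.7 and 15.9 FPKM (log2 fold change -0.20, 95% interval -0.38 to -0.02, limma adjusted p = 0.211, exact permutation p = 0.0556). In both genes replicates 1 to 4 of the IPF group were below every sham lung, while IPF replicate 5 lay within the sham range. Eif2ak3 (ENSMUSG00000031668, chromosome 6, 70844515 to 70905245) varied least of the members in the IPF group, at 7.92, 7.64, 7.25, 8.20 and 7.79 FPKM, and was at 9.34, 7.57, 7.82, 7.14 and 8.71 FPKM in the sham group. The sham values enclosed all IPF values, and the log2 fold change was -0.06 (95% interval -0.23 to 0.11, limma adjusted p = 0.735).

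**Figure D2:**
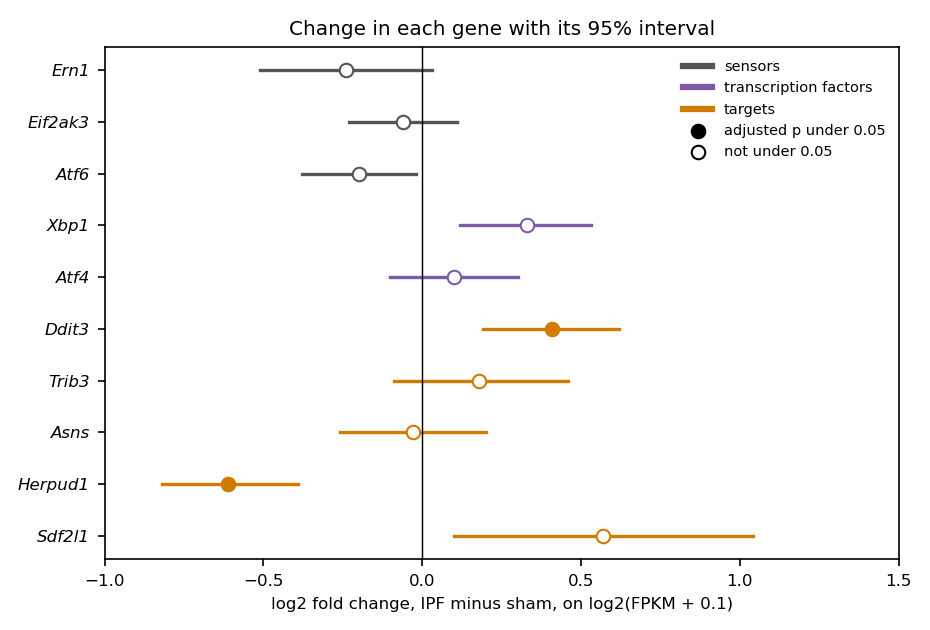
Log2 fold change (IPF minus sham, on log2(FPKM + 0.1)) of each gene with its 95% interval from limma, coloured by role. Filled points had an adjusted p under 0.05; Ddit3 (0.41) and Herpud1 (-0.61) are filled on opposite sides of 0, and the intervals of Atf6, Xbp1 and Sdf2l1 miss 0 without passing the adjusted test.

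FPKM is scaled by gene length, so levels can be set beside each other between genes. In the sham group the order of the mean levels was Herpud1 (102 FPKM), Atf4 (69.5), Xbp1 (64.5), Sdf2l1 (15.2), Atf6 (15.0), Ddit3 (10.4), Ern1 (9.15), Eif2ak3 (8.12), Asns (7.46) and Trib3 (2.42). Neighbours whose ranges over the 5 sham lungs overlapped were Atf4 and Xbp1, Sdf2l1 and Atf6, Ddit3 and Ern1, Ern1 and Eif2ak3, and Eif2ak3 and Asns. In the IPF group Xbp1 came first (81.0 FPKM), followed by Atf4 (74.1) and Herpud1 (67.5), whose ranges overlapped in this order, and Ddit3 came before Atf6.

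Sensors were set against targets in each lung by the mean log2(FPKM + 0.1) of each role, as a description with no test. The mean of the 3 sensors was 3.22 ± 0.14 in the IPF group and 3.38 ± 0.15 in the sham group, and the mean of the 5 targets was 3.75 ± 0.13 and 3.64 ± 0.08 (SD, n = 5 each). Targets minus sensors was 0.38, 0.80, 0.71, 0.60 and 0.18 in IPF replicates 1 to 5 and -0.08, 0.45, 0.39, 0.36 and 0.17 in the sham replicates. IPF replicates 2, 3 and 4 were above all sham lungs, the other IPF lungs lay within the sham range, and sham replicate 1 was the lowest. The difference between the group means was 0.27, about the size of the SDs of 0.25 and 0.22. The target mean joins Herpud1 with Ddit3, Sdf2l1 and Trib3, whose fold changes were positive, and with Asns, which was near 0 (-0.03). On pairs of genes, a comparison chosen after the values were seen, Xbp1 minus Herpud1 was 0.27 ± 0.33 in the IPF group and -0.66 ± 0.19 in the sham group, and Ddit3 minus Herpud1 was -2.27 ± 0.38 and -3.29 ± 0.14 (log2, SD, n = 5 each).

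Gene length moved with this contrast. The sensors are 6026 to 9231 bases long and the targets 1108 to 2735. Over all genes with a mean of at least 1 FPKM, the median log2 deviation of 3722 genes longer than 6000 bases minus that of 3809 genes shorter than 2500 bases was 0.34 in sham replicate 1, -0.18 and -0.16 in IPF replicates 2 and 3, and between -0.09 and 0.11 in the other lungs. The 2 lungs with the highest targets minus sensors were those where long genes as a whole were lowest. With the trend over gene length removed in each lung, an alternative chosen after seeing the data, the group difference of targets minus sensors was 0.18 in place of 0.27, and the log2 fold change of Ddit3 was 0.33 (limma adjusted p = 0.0599).

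**Figure D3:**
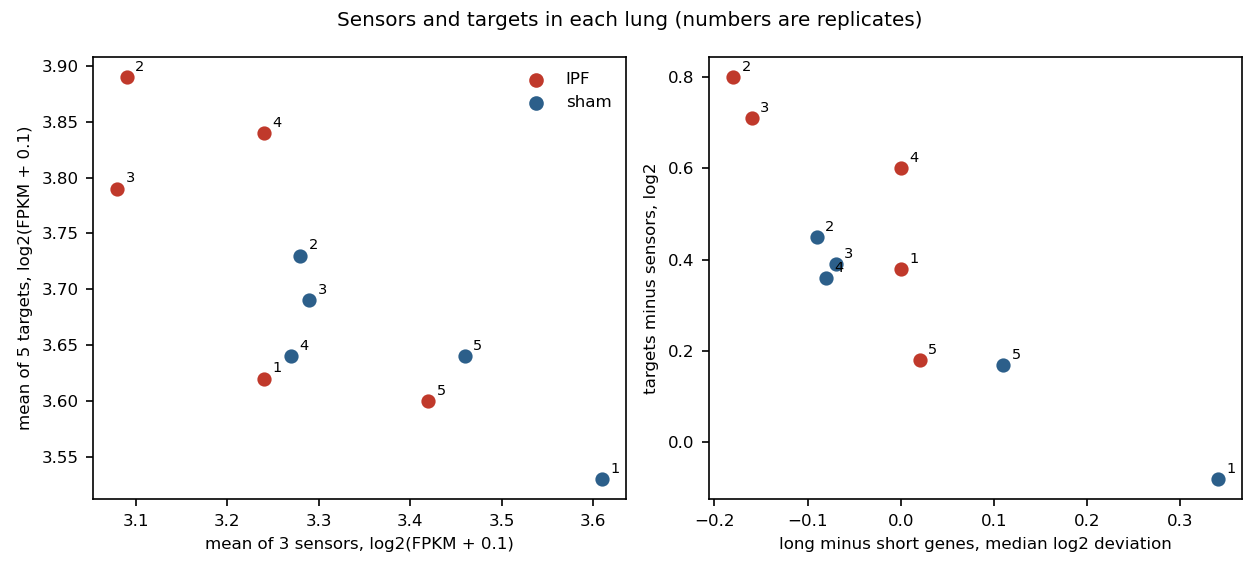
Left, mean of the 5 targets against mean of the 3 sensors (both log2(FPKM + 0.1)) in each lung; right, targets minus sensors (log2) against the long minus short gene deviation (median log2) of the same lung. Points are lungs, red for IPF and blue for sham, numbered by replicate; sham replicate 1 lies lowest in targets minus sensors (-0.08) and highest in the length measure (0.34).

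Lung-to-lung variation inside the groups was compared by Pearson's r of the deviations from the group means over the 10 lungs. Of the 45 pairs of members 20 were positive and 25 negative, with a median absolute r of 0.45, against 0.35 for pairs of a member with any other gene of at least 1 FPKM. At the extremes r was 0.90 between Xbp1 and Sdf2l1, 0.89 between Xbp1 and Asns and 0.93 between Ern1 and Atf6, and it was -0.91 between Ern1 and Xbp1. These points share libraries and their length trend; with the length trend removed the same 4 values were 0.84, 0.84, 0.87 and -0.92. Other pairs depended more on that trend: r was 0.45 for Atf4 with Ddit3 and -0.75 for Ddit3 with Trib3, and with the length trend removed it was 0.23 and -0.44. The 2 genes called had r = -0.47 with each other.

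**Figure D4:**
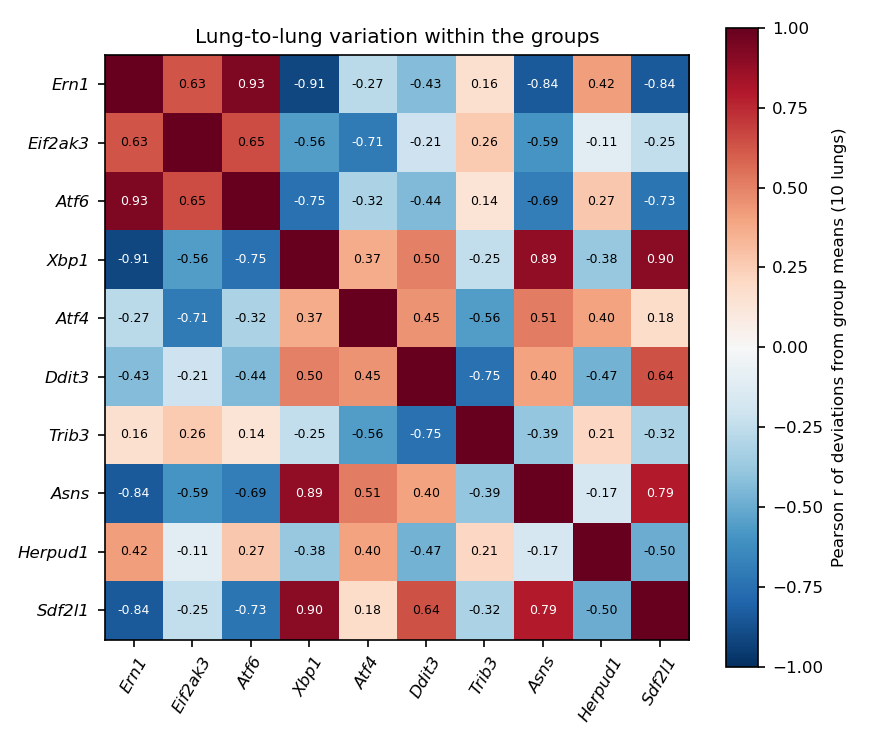
Pearson's r between each pair of the 10 genes, on deviations of log2(FPKM + 0.1) from the group mean over 10 lungs (red positive, blue negative). Xbp1, Asns and Sdf2l1 were positive with each other (0.79 to 0.90) and negative with Ern1 (-0.91 to -0.84).

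For each member the gene with the most similar pattern was sought among 13444 other genes with a mean of at least 1 FPKM, by Pearson's r over all 10 lungs. Each r below is the largest of that search over few lungs, so a high value comes partly from the search itself. These values also include the group difference and the length trend. The highest r was 0.984 for Ern1 with Med13l and also 0.984 for Atf6 with Pdcd6ip, followed by Herpud1 with Piwil4 (0.982), Ddit3 with Idnk (0.981), Asns with Higd1a (0.978) and Xbp1 with Hnrnpc (0.974). Sdf2l1 was most like Swsap1 (0.959), Eif2ak3 most like Ralgapb (0.948), Atf4 most like the pseudogene Pdcd5-ps (0.936) and Trib3 least tied to any gene, with Npr3 at 0.863. The member pairs above did not come first for either partner. Piwil4 was at 0.735 ± 0.181 FPKM in the IPF group and 1.35 ± 0.141 in the sham group (SD, n = 5 per group), a log2 fold change of -0.82. It was picked for its match to Herpud1 with the group difference included, so this fall is not a separate result. It reached a mean of 1 FPKM only through the sham group.

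The wider pathway was followed in 7 lists of 94 genes, 92 of them tested. Of these, 3 were called higher and 3 lower, the background being 3.71% and 2.14% of all genes, with 54 positive and 38 negative fold changes and a median of 0.02. In the lists with 0 calls in a direction below, limma voom on the recovered reads also made none in that direction, apart from the alveolar type 2 and the endothelial and alveolar type 1 markers, where it called 1 lower in each. The ER side held few calls. None of the 16 ER chaperones and folding enzymes passed limma's adjusted test (4 had an unadjusted p under 0.05), while 14 had a positive fold change and the median was 0.12. Hsp90b1, the ER member of the HSP90 family and the chaperone with the smallest p, was at 132, 169, 161, 165 and 121 FPKM in the IPF lungs and at 116, 125, 124, 116 and 120 FPKM in the sham lungs (log2 fold change 0.30, limma adjusted p = 0.10). Its IPF replicate 5 was again the lowest of that group, inside the sham range. The mean log2 level of the 16 chaperones was 5.72, 6.01, 5.89, 5.95 and 5.60 in IPF replicates 1 to 5, the same order of lungs as for Sdf2l1, and 5.59 to 5.75 in the sham group. Without IPF replicate 5, 4 chaperones were called higher: Hspa5 (BiP, 0.53, limma adjusted p = 0.0134), Pdia4 (0.46), Hsp90b1 (0.37) and Calr (0.36). In the other 9 fits that left out 1 lung no chaperone was called, and Hsp90b1 was at 0.25 to 0.34 (limma adjusted p 0.0916 to 0.217). Calls were more frequent over all genes in that fit too, with 4.62% called higher against 3.71% with all lungs.

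Of the 16 ERAD genes none was called (1 had an unadjusted p under 0.05), and the median was 0.04. The smallest p belonged to Syvn1, the ubiquitin ligase at the core of the same pathway as Herpud1, at 13.5, 13.1, 13.4, 13.8 and 12.2 FPKM against 12.2, 11.3, 11.9, 12.5 and 10.1 FPKM (log2 fold change 0.19, limma adjusted p = 0.140). Herpud1 thus lay outside the range of this list, which was -0.12 to 0.25. Among the 9 tested genes for other ER membrane sensors and their processing (Ern2 was too low to test), 1 rose and none fell. This was Creb3l1, which encodes OASIS, a membrane-bound factor of collagen-secreting cells, at 16.8, 14.6, 15.0, 17.3 and 8.99 FPKM against 7.13, 7.01, 5.86, 7.17 and 7.13 FPKM. All IPF lungs were above all sham lungs, with IPF replicate 5 the lowest, and the log2 fold change was 1.04 (SE 0.16, limma adjusted p = 0.00353).

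On the ISR side the calls went in both directions. None of the 12 genes for eIF2α kinases, phosphatases and eIF2B was called (2 had an unadjusted p under 0.05). The smallest p was that of Eif2ak4 (GCN2, the kinase that senses lack of amino acids), at 3.52, 3.23, 3.43, 3.56 and 4.06 FPKM against 5.07, 4.11, 4.05, 4.25 and 4.16 FPKM (log2 fold change -0.27, limma adjusted p = 0.0975). Without IPF replicate 5 it was called lower (-0.32, limma adjusted p = 0.0428), as were Cebpg (-0.27) and Slc6a9 (-0.36) of the ATF4 target lists, where 3.26% of all genes were called lower; in the other 9 such fits Eif2ak4 did not pass (limma adjusted p 0.128 to 0.205). Of 13 tested ATF4 stress targets (Fgf21 was too low to test), 2 rose and 2 fell, and the median was 0.21. Ddit4 (REDD1, an inhibitor of mTORC1 that glucocorticoids and hypoxia also induce) was at 11.6, 12.9, 15.4, 13.9 and 15.1 FPKM in the IPF lungs and at 37.7, 31.8, 32.0, 27.3 and 24.4 FPKM in the sham lungs, and fell by 1.14 on the log2 scale (SE 0.12, limma adjusted p = 0.000432). Nupr1, a small chromatin protein induced by stress, was at 41.0, 53.4, 56.8, 42 and 39.3 FPKM against 20.7, 23.9, 22.4, 24.4 and 22.2 FPKM, and rose by 1.02 (SE 0.11, limma adjusted p = 0.000432). Both were separated completely between the groups and had changes of similar size in opposite directions. Sesn2 (sestrin 2, which restrains mTORC1 when leucine is short) fell by 0.41 (SE 0.07, limma adjusted p = 0.00883), from 7.67 to 8.73 FPKM in the sham lungs to 5.42 to 6.91 FPKM in the IPF lungs. The fourth call of this list was Bbc3 (PUMA, a cell death gene), outside the naming rule of 3 genes a list and given because it completes the count. Bbc3 rose, with a log2 fold change of 0.46 and an adjusted p of 0.0203 by limma. Its call was lost without IPF replicate 1, without IPF replicate 2 and without sham replicate 3, fits in which Nupr1 stayed called.

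Of the 14 ATF4 targets for amino acid synthesis and transport, to which Asns belongs by function, 1 fell and none rose, with a median of 0.01. Limma voom called 3 lower, adding Psat1 and Slc7a1, in a fit where 3.05% of all genes were called lower. Slc7a5, the LAT1 carrier of large neutral amino acids, was at 1.81, 1.71, 2.44, 2.47 and 2.50 FPKM in the IPF lungs and at 3.86, 3.61, 4.32, 3.14 and 3.73 FPKM in the sham lungs. The groups did not overlap, and the log2 fold change was -0.76 (SE 0.13, limma adjusted p = 0.00722). The 12 cytosolic tRNA synthetases, many of which ATF4 induces, held no call (3 had an unadjusted p under 0.05), and 11 of them had a negative fold change, with a median of -0.10. Aars had the smallest p, at 9.25, 9.41, 9.43, 10.2 and 8.90 FPKM against 10.8, 10.8, 10.3, 10.6 and 11.6 FPKM (log2 fold change -0.20, limma adjusted p = 0.0622), and its groups did not overlap although it missed the adjusted limit.

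**Figure D5:**
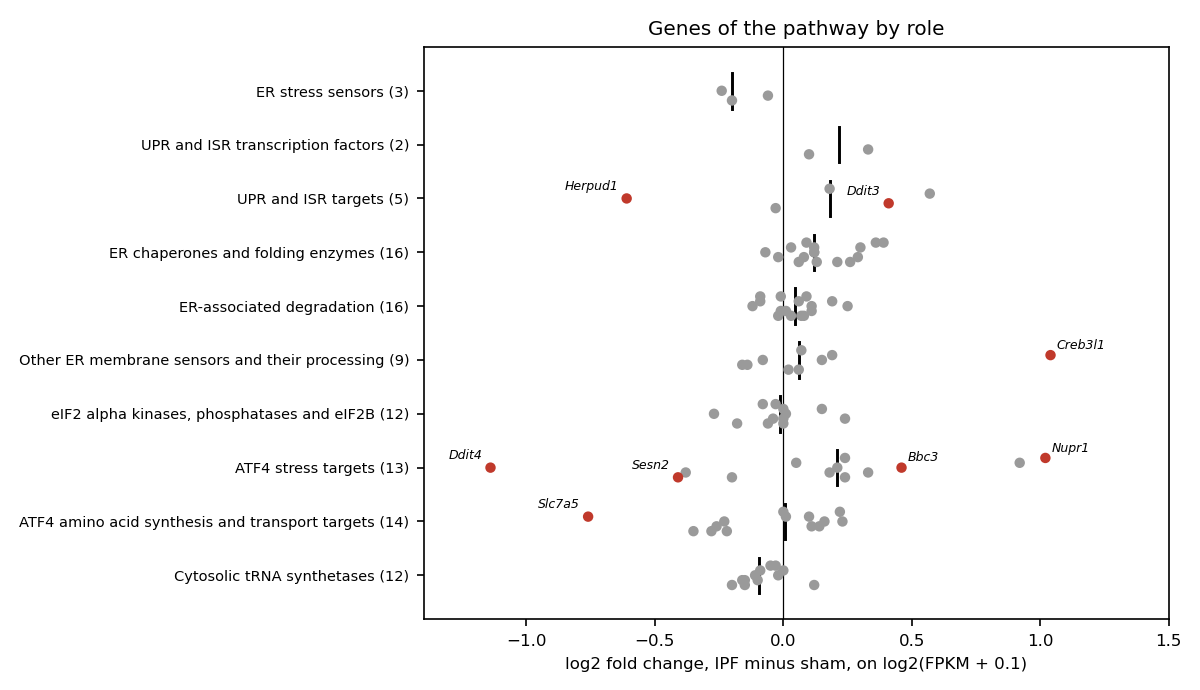
Log2 fold change (IPF minus sham, on log2(FPKM + 0.1)) of every tested gene of the 3 member roles and 7 wider lists, with the number of genes in brackets. Red points had a limma adjusted p under 0.05, and black bars are list medians; calls lie on both sides of 0, with Ddit4 (-1.14) and Creb3l1 (1.04) farthest out.

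Genes with each of the promoter elements searched were looked at after the values were seen. Of the 12 genes with ERSE-II, 9 were tested, and Herpud1 was called lower and none was called higher. Dnajb11, an ER co-chaperone among these, was at 33.8 ± 3.44 FPKM against 32.9 ± 0.857 FPKM (SD, n = 5 per group), with a log2 fold change of 0.03 and an adjusted p of 0.840 by limma. Of the genes with the full ERSE 21 were tested, 15 with a positive fold change, and Adcy3, an adenylate cyclase, was called higher (0.50, limma adjusted p = 0.008). None of the other 20 was called. The 7 of them that are in the chaperone list had log2 fold changes of 0.39 (Hspa5), 0.30 (Hsp90b1), 0.26 (Calr), 0.21 (Pdia6), 0.12 (Creld2), 0.08 (Canx) and 0.06 (Dnajc3), and Derl3, an ER gene of the plasma cell list, was at -0.44. Among the 371 tested genes with a CARE, 24 were called higher (6.47%, against 3.71% of all genes) and 9 lower (2.43% against 2.14%). The median of the CARE genes was 0.00. Among the 128 with a UPRE, 6 were called higher (4.69%) and 3 lower (2.34%). The UPRE genes had 52 positive and 76 negative fold changes and a median of -0.03. Genes with an element are limited to those with a RefSeq promoter matched by symbol, so the shares over all genes come from an unlike set. In the fit of all genes with a mean of at least 1 FPKM, 6.09% were called higher and 3.46% lower.

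Sums over cell type markers overlapped between the groups in all 6 cell type lists, while single markers differed. The 10 alveolar type 2 markers summed to 17300 to 19500 FPKM in the IPF lungs and to 13200 to 20700 in the sham lungs, and the 8 plasma cell markers to 60.6 to 82.4 and 67.0 to 84.1 FPKM. Sftpc, with means of 14900 and 14400 FPKM, and Sdc1, with 62.5 and 64.9 FPKM, made up most of these sums. In each list 1 marker was called higher, with no overlap between the groups: Lpcat1, at 108 to 134 FPKM in the IPF lungs and 92.3 to 99.6 in the sham lungs, and Pou2af1, at 3.08 to 4.06 against 1.39 to 2.44 FPKM. Sftpb did not overlap either, at 1270 to 1580 against 1640 to 1850 FPKM, and was not called by limma on FPKM (log2 fold change -0.24). In the plasma cell list 5 of the 8 log2 fold changes were positive, with a median of 0.19; among the markers not called were Mzb1 (0.61, limma adjusted p = 0.0963), Jchain (-0.62) and Derl3 (-0.44). The secretory airway markers, of which 7 of 8 were tested, summed to 3710 to 27500 FPKM in the IPF group and to 11500 to 23000 in the sham group, with none called (0 at an unadjusted p under 0.05). The 8 ciliated cell markers had negative fold changes throughout, with none called (0 at an unadjusted p under 0.05). All 8 neutrophil markers had positive fold changes, with a median of 0.93, and none was called (5 at an unadjusted p under 0.05). The 8 endothelial and alveolar type 1 markers summed to 2020 to 2430 and 2000 to 2230 FPKM. Of their fold changes 4 were positive and 4 negative, with a median of 0.00. The endothelial Cldn5 was called higher, at 432 to 481 FPKM against 238 to 340 (log2 fold change 0.56), and limma voom called Pdpn lower. IPF replicate 5, where the neutrophil sum was highest, was the IPF lung with the lowest Xbp1, Sdf2l1 and Hsp90b1 and the highest Herpud1, and the part of the cell types named here in the members' values was not tested.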

How the data were processed

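RNA of lung tissue was sequenced in 10 samples, 5 per group. Groups and replicate numbers come from the sample titles, which do not tie samples to mice, so p-values rest on the spread between these samples. Per the paper, reads were cleaned with Fastp, mapped by HISAT2 to a genome named as GRCm39 and summarised per gene with StringTie, and the authors deposited the result as FPKM. The submitters' processing notes name Bowtie 0.12.2 and the builds hg38, GRCm38 and mm10, and the gene positions in the table are those of GRCm38. The library kit is NEBNext Ultra per the labels and KAPA mRNA HyperPrep per the paper.

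Genes whose FPKM averaged at least 0.1 entered the limma 3.58.1 fit (R 4.3.3, trended variances) on log2(FPKM + 0.1), with no covariate and Benjamini-Hochberg adjustment. DESeq2, the test of the paper, was not used here, and limma voom on recovered reads was run as an alternative. The fit was tested on simulated data; its pass criterion was loosened 2 times after its output was seen, in the end to genes with a mean of at least 50 reads, so it says nothing of recovery below that. Reads were recovered from FPKM times gene length. All values checked came out whole within 0.01 (100% of them), and the highest values were not checked. Pairs of samples of a group differed by more than counting noise (chi-square per degree of freedom 4.49 to 34.3). Intervals cover the spread between samples. Tables and exact tests used Python 3.11.15, pandas 2.3.3, numpy 2.4.6 and scipy 1.17.1.

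The members and lists were chosen with earlier results of these data known. The text names all 10 members, the genes called in each wider list (up to 3 by p, or else the gene with the smallest p), and the most similar gene of each member; genes named beyond this rule were chosen after their values were seen. Promoters came from a RefSeq table (GRCm38.p6) and were matched by symbol. Alternatives were pseudocounts of 1 and 0.01, a minimum mean FPKM of 1 or none, scaling by median ratios, quantile normalization, a replicate block, no variance trend, limma voom on the recovered reads and leaving out each sample; a gene length correction was added after seeing the data.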

Additional observations from a re-analysis of the deposited data

Results flagged for a closer look

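Among 48 sets of 5 values (38 of members and named pathway genes and 10 of role means and their differences, each group apart), 2 held a lung that stood far from the others of its group by Dixon's test, and chance alone gives about 1 in 20. Creb3l1 in sham replicate 3 was at 5.86 FPKM, below the other sham lungs at 7.01 to 7.17, a gap of 0.878 of the group's range. Eif2ak4 in sham replicate 1 was at 5.07 FPKM, above the other sham lungs at 4.05 to 4.25, a gap of 0.804 of the range.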

How the results depend on the processing

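Over the 20 alternatives Herpud1 kept its direction and an adjusted p under 0.05 (0.000462 to 0.0214, log2 fold change -0.69 to -0.54). Ddit3 kept its direction, and its adjusted p ranged from 0.0149 to 0.0846; it passed 0.05 in 10 alternatives. The number of members called higher was 0 with no filter on low values, 0 with no variance trend, 0 with the gene length correction (chosen after seeing the data), and 0 to 3 when 1 lung was left out. Without IPF replicate 5 it was 3 (Ddit3, Xbp1 and Sdf2l1), where 4.62% of all genes were called higher and 3.26% lower. Members called lower stayed at 1. In the wider lists, 2 to 7 genes were called higher and 3 to 6 lower when 1 lung was left out, 7 and 6 of them without IPF replicate 5. With a mean FPKM of at least 1, 5 were called lower, where 3.46% of all genes were. With limma voom 5 were called lower, where 3.05% of all genes were. The fold change of Asns changed sign without IPF replicate 1 (0.01), without IPF replicate 5 (0.02) and without sham replicate 4 (0.02), in a leave-one-out range of -0.09 to 0.02, never past the test. The difference in targets minus sensors was 0.18 to 0.36 over 14 alternatives. Over all genes the calls were 494 to 950 higher and 274 to 670 lower when 1 lung was left out, the highest of both without IPF replicate 5. The cause of these shifts was not tested, and the median of all genes moved by under 0.1 throughout.

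Neither the labels nor these values settle whether the replicate numbers pair the lungs. The correlation of deviations between lungs of the same number was -0.0204 to 0.0953. Of the 5 IPF lungs, 3 correlated best with the sham lung of their own number. With the replicate block 2 members were called higher, Ddit3 and Xbp1 (0.33, limma adjusted p = 0.0453). The short forms of the promoter motifs, CCACG and CCAAT, were each found in 5 members. At 71 to 143 reads a lung, Trib3 was the member most limited by depth.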
